A study of Mus musculus with 8 samples.

Results

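The genes described here are 10 members of the ATF4 amino acid stress program: Atf4 itself, the transporter genes Slc7a5 and Slc3a2, the serine synthesis genes Psat1 and Phgdh, the asparagine synthetase gene Asns, and the stress effectors Chac1, Trib3, Sesn2 and Ddit3. They were taken from a fixed list of ATF4 and its known targets, which was chosen with earlier results of these data known. Of these genes, 10 of 10 were read by a probe set of their own among 22180 genes of the array. Total RNA was measured on 8 arrays of mouse embryonic fibroblasts (MEFs), labelled as primary cells, all of which lacked endogenous STING, the adaptor of the endoplasmic reticulum (ER) that relays sensing of cytosolic DNA to interferon genes. The STING-/- cells had been given R284S STING, the N154S mutant (a SAVI mutant per the design text), human STING (hSTING), or the empty retroviral vector pBabe, called vector below. Each line was read once after double-stranded DNA (dsDNA) delivered with Lipofectamine for 9 h and once as a control culture. The labels do not say whether control cultures received the lipid alone. No construct and treatment was replicated, each line is a single cell population, and a line difference therefore includes anything else that set the populations apart.

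ATF4 is the transcription factor of the integrated stress response. Kinases that sense amino acid shortage, ER stress, viral RNA or haem loss phosphorylate the initiation factor eIF2, which lowers general translation while favouring translation of the Atf4 mRNA, so that ATF4 protein can change without its transcript. ATF4 then switches on genes for amino acid import, for serine and asparagine synthesis and for transfer RNA charging, and under lasting stress it turns on Ddit3, Trib3 and Chac1, which are tied to cell death and glutathione loss.

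Values are log2 array signals, and differences are on the log2 scale. The median gene read 4.42 to 4.47 on the 8 arrays, and the 10 genes lay above it on all of them, from 5.35 (Trib3, R284S control) to 10.90 (Slc3a2, hSTING with dsDNA). Fibroblast genes were bright, with Fn1 between 11.70 and 12.15 and Vim between 12.52 and 12.80. At the dim end of their lists, the leukocyte marker Ptprc read 2.48 to 2.67, the epithelial marker Epcam 2.24 to 2.58 and the endothelial marker Tek 3.0 to 3.38. Some markers of the same lists lay above the median gene. The leukocyte marker Cd68 read 5.77 to 6.52 and the epithelial marker Krt8 4.77 to 5.32. The endothelial marker Kdr read 5.03 in dsDNA-treated hSTING cells, against 3.93 in dsDNA-treated vector cells. No marker was listed at 0. In the limma fit described below, at an adjusted p under 0.05, 4 of 8 fibroblast markers fell in R284S against vector cells (Col1a1, Col3a1, Pdgfrb and Thy1). Over all genes 1.02% fell. In N154S cells 3 fell (Col1a1, Col3a1 and Pdgfrb), where 0.609% of all genes fell. Col3a1 differed most, at -2.265 in R284S and -1.41 in N154S cells. Of the 5 leukocyte, 4 epithelial and 4 endothelial markers 0 passed. The summed fibroblast signal was 13.81 with dsDNA and 13.85 in control R284S cells, 13.75 and 13.95 in N154S cells, 14.0 and 14.19 in hSTING cells, and 14.23 and 14.27 in vector cells. The collagen gene Col1a1, one of those that fell, read 10.19 with dsDNA and 10.16 in control R284S cells and 10.47 and 10.73 in N154S cells, against 11.36 and 11.53 in vector cells. The part of this marker difference in the results was not tested. An interferon panel of 8 genes separated the lines that carried STING from vector cells, with Ccl5 at 13.01 in R284S, 12.22 in N154S and 8.60 in hSTING control cells, against 4.74 in vector control cells. The part of this interferon difference was not tested either.

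ATF4 binds C/EBP-ATF response elements, often written TGATGNAA, and promoters were searched for these letters on both strands. RefSeq promoter windows of build GRCm38.p6, 300 bases from 250 before to 50 after the start, matched 9 of the 10 genes, in 10 windows. Slc7a5 had no window. The letters stood in 3 of these 10 windows, for Asns, Chac1 and Trib3, in 30.8% of the 26 windows of other ATF4 targets, in 4 of 8 windows of the synthetase genes and in 1 of 14 windows of ER chaperone genes. Over all promoters the share was 3.97% of 32851 windows. The Trib3 match lay downstream of the start. The upstream matches of 2 members and of 3 other targets are printed on the strand of the gene, with the motif in capitals, which reads as its reverse complement where it lies on the other strand. Asns and Pck2 were low in the mutant lines, Chac1 and Atf3 had high signals in dsDNA-treated hSTING cells, and Slc7a11 was higher with dsDNA in every line. They do not stand for all genes with these patterns. The windows of Psat1 and Phgdh, also low in the mutants, held 0 matches. Among other targets that were low there, none was found for Cth, Mthfd2, Aldh1l2, Slc7a3 or Gpt2, and the match of Slc1a4 spanned the start. Windows were found for 23 of the 28 other targets, so a target without a match may also have had no window.
Asns, chr6:7693210-7693248, minus strand: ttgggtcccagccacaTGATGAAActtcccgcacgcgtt
Chac1, chr2:119351033-119351072, plus strand: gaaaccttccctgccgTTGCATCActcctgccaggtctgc
Pck2, chr14:55540147-55540186, plus strand: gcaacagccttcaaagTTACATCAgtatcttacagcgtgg
Atf3, chr1:191183420-191183459, minus strand: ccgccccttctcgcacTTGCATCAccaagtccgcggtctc
Slc7a11, first match, chr3:50443656-50443695, minus strand: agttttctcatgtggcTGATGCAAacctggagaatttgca
Slc7a11, second match, chr3:50443637-50443676, minus strand: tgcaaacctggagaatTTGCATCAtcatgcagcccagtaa
The printed stretches of Slc7a11 overlap, and capitals mark 1 match in each. A match describes these letters in this window and not a bound site.

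The study's construct comparison asked, for these genes, whether the amino acid stress program differed between STING variants. On the arrays, the leucine importer gene Slc7a5, the serine synthesis genes Psat1 and Phgdh, and Asns read lowest in R284S cells and next lowest in N154S cells, below every hSTING and vector array. These 4 genes passed in R284S against vector cells, Psat1 alone of them in N154S against vector cells, and none in R284S against N154S cells. In a limma fit over all 22180 genes with construct and treatment as additive terms, 4 of 10 genes fell in R284S against vector cells and 0 rose, where 1.02% of all genes fell. The 10 genes had a median fitted difference of -0.76, against 0.01 over all genes. The spread in this fit is the unevenness of the dsDNA difference between lines, not that between replicate cultures, so its p-values measure an average line difference against that unevenness.

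The largest difference was that of Slc7a5, the light chain of the transporter that brings leucine and other large neutral amino acids into the cell. It read 8.25 with dsDNA and 8.18 in control R284S cells, 9.32 and 8.98 in N154S cells, 10.27 and 10.10 in hSTING cells, and 9.80 and 9.96 in vector cells. Both R284S arrays lay below both N154S arrays, which lay below all 4 arrays of hSTING and vector cells. Slc7a5 fell 3.17-fold in R284S against vector cells, by 1.67 on the log2 scale (SE 0.15, limma adjusted p = 0.00471). Slc3a2, the heavy chain that carries this transporter to the membrane, read 10.16 with dsDNA and 10.06 in control R284S cells, 10.47 and 10.15 in N154S cells, 10.90 and 10.46 in hSTING cells, and 10.61 and 10.52 in vector cells. Both R284S arrays lay below both vector arrays, and the N154S and hSTING arrays overlapped. Its fitted difference of -0.46 did not pass (SE 0.14, adjusted p = 0.195).

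Both serine synthesis genes fell in R284S cells. Psat1, the phosphoserine aminotransferase, read 7.13 with dsDNA and 7.13 in control R284S cells, 7.65 and 7.55 in N154S cells, 8.47 and 8.40 in hSTING cells, and 8.27 and 8.50 in vector cells. The R284S and N154S arrays did not overlap with each other or with those of the other lines. Psat1 fell 2.39-fold in R284S against vector cells (log2 difference -1.26, SE 0.13, limma adjusted p = 0.00789). Phgdh, which catalyses the first step from glycolysis into serine, read 6.45 and 6.70 in R284S cells, 6.99 and 7.30 in N154S cells, 7.68 and 7.76 in hSTING cells, and 7.41 and 7.74 in vector cells. It fell 2.0-fold in R284S against vector cells (SE 0.12, adjusted p = 0.0139), with both R284S arrays below the other 6. Asns, which makes asparagine from aspartate and glutamine, read 8.54 and 8.44 in R284S cells, 8.82 and 8.66 in N154S cells, 9.45 and 9.36 in hSTING cells, and 9.36 and 9.39 in vector cells. Its level in hSTING cells overlapped that in vector cells, and Asns fell by 0.89 in R284S against vector cells (SE 0.12, adjusted p = 0.0174). Without the N154S arrays in the fit, Asns and Phgdh no longer passed, at adjusted p = 0.0609 and adjusted p = 0.0548, while Psat1 and Slc7a5 did. With the 4 R284S and vector arrays alone, which leave 1 residual degree of freedom, 0 of the 4 passed.

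**Figure D1:**
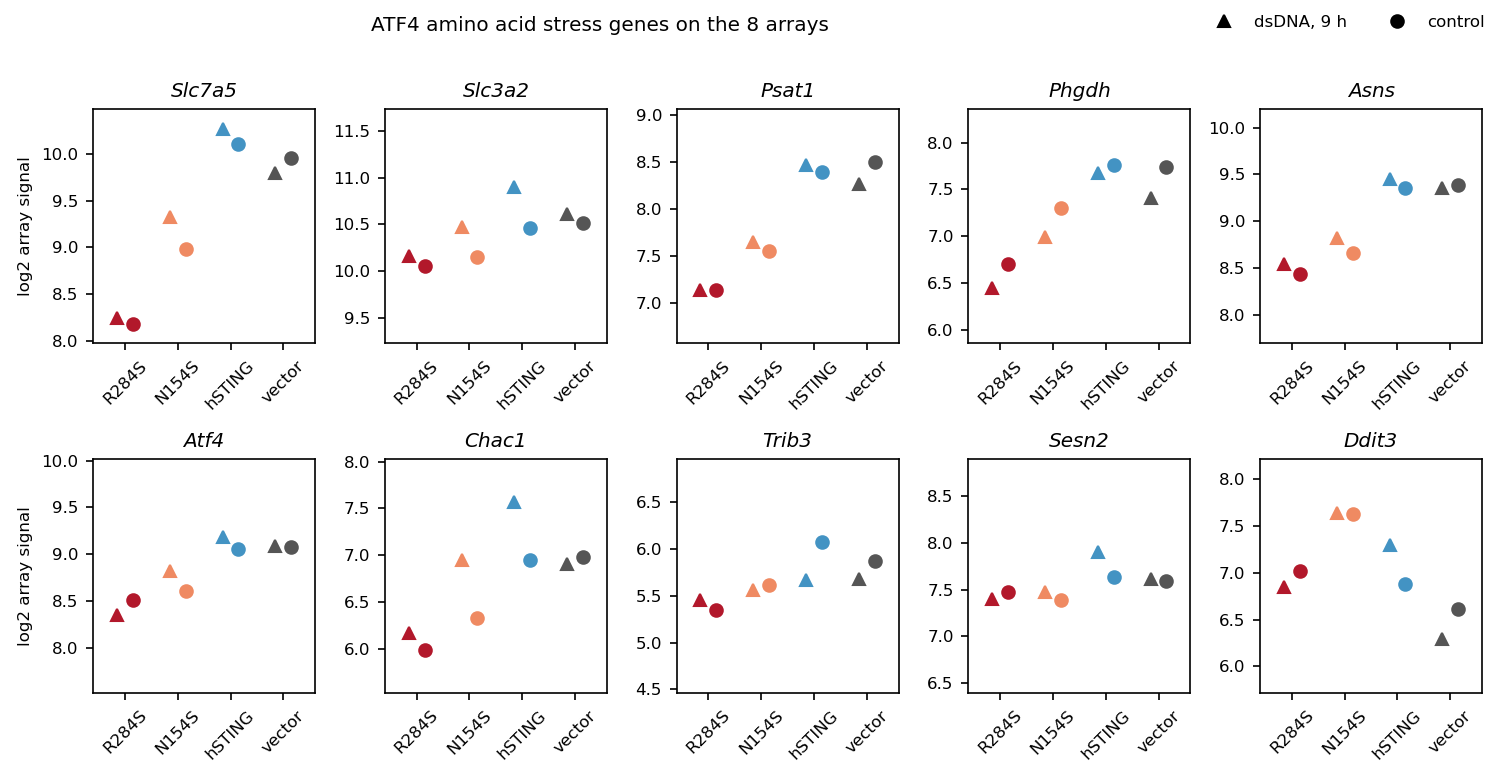
Log2 array signals of the 10 genes on the 8 arrays, 1 panel per gene with axes of equal height. Triangles are dsDNA-treated and circles control cells, and lines run from R284S on the left to vector on the right. Slc7a5, Psat1, Phgdh and Asns step down towards R284S, while Ddit3 is highest in N154S at 7.64 and 7.63.

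The transcript of the factor itself did not pass. Atf4 read 8.35 with dsDNA and 8.51 in control R284S cells, 8.82 and 8.61 in N154S cells, 9.18 and 9.05 in hSTING cells, and 9.09 and 9.08 in vector cells. The mutant arrays were below all others, but the fitted difference of -0.66 in R284S cells did not pass (SE 0.13, adjusted p = 0.0697). Atf4 passed there, and against hSTING cells, with trended, robust variances and with a filter on dim genes. Chac1, which degrades glutathione, read 6.17 and 5.98 in R284S cells, 6.95 and 6.33 in N154S cells, 7.57 and 6.95 in hSTING cells, and 6.91 and 6.98 in vector cells. Its difference between R284S and vector cells was -0.87 (adjusted p = 0.0876). Trib3, a pseudokinase that restrains AKT and ATF4 signalling, was the dimmest of the 10, at 5.35 to 6.07, with a difference of -0.38 in R284S cells (adjusted p = 0.321). Sesn2, a leucine sensor upstream of mTORC1, stayed within 7.39 to 7.90 on the 8 arrays. Its difference of -0.17 in R284S against vector cells had a 95% interval of -0.47 to 0.14, which leaves room for a small change in either direction.

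Ddit3, which encodes the stress transcription factor CHOP, did not follow the other 9 genes. It read 6.85 with dsDNA and 7.02 in control R284S cells, 7.64 and 7.63 in N154S cells, 7.30 and 6.88 in hSTING cells, and 6.29 and 6.61 in vector cells. All arrays of the 3 lines that carried STING were above both vector arrays, and N154S cells were highest. Ddit3 rose 2.27-fold in N154S against vector cells (log2 difference 1.18, SE 0.19, limma adjusted p = 0.0363), while differences of 0.48 in R284S and 0.64 in hSTING cells did not pass (adjusted p = 0.3 and adjusted p = 0.474). Over the 8 arrays, Pearson's r was positive in 36 of 36 pairs among the other 9 genes, at 0.46 to 0.99, and positive in 0 of the 9 pairs with Ddit3, at -0.41 to -0.02. These are descriptions over 8 arrays that share 4 lines.

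In N154S against vector cells, Ddit3 was the 1 of 10 genes that rose, where 0.708% of all genes did, and Psat1 the 1 of 10 that fell, where 0.609% did. Psat1 fell 1.72-fold (log2 difference -0.79, SE 0.13, limma adjusted p = 0.0456). Asns at -0.64 (adjusted p = 0.0628) and Slc7a5 at -0.73 (adjusted p = 0.0768) lay just outside the threshold, and the median over the 10 genes was -0.34, against 0 over all genes. Without the R284S arrays neither call held, at adjusted p = 0.0621 for Ddit3 and adjusted p = 0.0903 for Psat1, and neither held with the 4 N154S and vector arrays alone. After quantile normalization Psat1 was at adjusted p = 0.053.

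hSTING cells gave no call among the 10 genes against vector cells. The limma count was 0 of 10, where 0.0992% of all genes passed in either direction. At an unadjusted p under 0.05 there was 1 of 10, against 2058 of 22180 genes. The limma count was also 0 of 10 with a variance trend and robust variances, where 31 of 22180 genes passed. The interval for Asns ran from -0.25 to 0.31 and that for Psat1 from -0.26 to 0.36. The fitted differences of these genes in R284S cells lay outside them. The intervals do not include the spread between replicate cultures and are not adjusted for the number of genes. They therefore cannot exclude a difference of that size in hSTING cells. For Slc7a5 the interval was -0.04 to 0.65, on the higher side. The same hSTING line had higher interferon panel signals than vector cells by a median of 4.54, and 2 of 8 panel genes rose, where 22 of 22180 genes did. The panel median was 4.68 in R284S and 5.22 in N154S cells, with 7 of 8 panel genes rising in each, where 226 and 157 of 22180 genes rose.

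**Figure D2:**
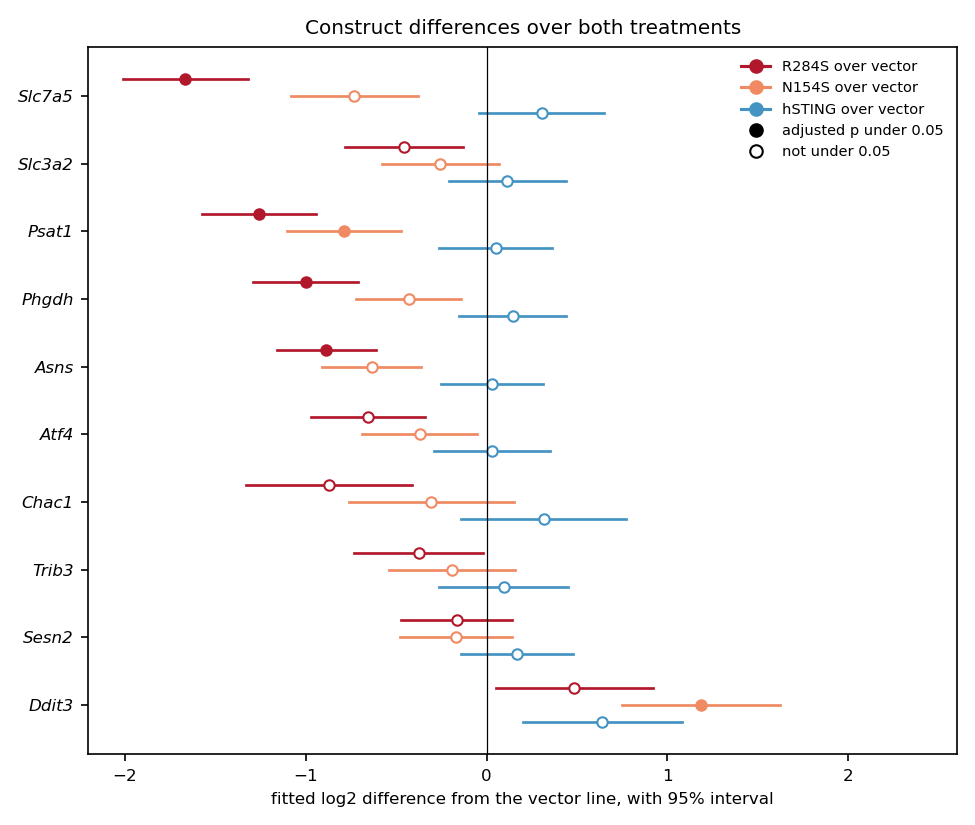
Fitted log2 differences of R284S, N154S and hSTING cells from vector cells over both treatments, with 95% intervals from the limma fit. Filled points passed the adjusted threshold: Slc7a5, Psat1, Phgdh and Asns in R284S cells, and Psat1 and Ddit3 in N154S cells.

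Against hSTING in place of vector cells, 5 of 10 genes fell in R284S cells and 0 rose, where 0.442% of all genes fell. Slc7a5 was lower by 3.92-fold, followed by Psat1 at -1.31 (SE 0.13, limma adjusted p = 0.0118), Chac1 at -1.18 (adjusted p = 0.0497), Phgdh at -1.15 (adjusted p = 0.0151) and Asns at -0.92 (adjusted p = 0.0251). Without the N154S arrays Slc7a5 alone passed, and without the vector arrays Psat1, Phgdh and Slc7a5 did, with Chac1 and Asns at adjusted p = 0.0576 and adjusted p = 0.0588. With the 4 R284S and hSTING arrays alone 0 passed. For N154S against hSTING cells 0 of 10 passed in limma, as did 0% of all genes, while 9 of 10 had an unadjusted p under 0.05, against 1972 of all 22180 genes. With a variance trend and robust variances Asns, Psat1 and Slc7a5 passed, where 125 of 22180 genes did. The mutants were not told apart from each other, with 0 of 10 passing, where 0.00902% of all genes passed. At an unadjusted p under 0.05 there were 5 of 10, against 1568 of 22180 genes. Slc7a5 was at -0.94 in R284S against N154S cells (limma adjusted p = 0.365). Its 95% interval of -1.28 to -0.59 is not adjusted for the number of genes. Slc7a5 was the 1 gene of the 10 that passed with a variance trend and robust variances, where 12 of 22180 genes did.

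Control cells alone, at 1 array per line and with no test, gave the same order of R284S and N154S. In R284S control cells 4 of 10 genes were 2-fold or more lower than in vector control cells (Slc7a5, Psat1, Phgdh and Chac1), where 0.721% of all genes were, counting genes whose brighter signal was at or above the median gene. In N154S control cells 0 of 10 were 2-fold lower, where 0.406% of all genes were, and Ddit3 was the 1 of 10 that was 2-fold higher, where 1.01% were. The median of the 10 genes was -0.76 in R284S and -0.45 in N154S control cells, and 0 over all genes in each comparison.

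The dsDNA comparison asked whether transfected DNA moved these genes. Across the 4 lines it did so for none of the 10 beyond the unevenness between lines: 0 of 10 passed in limma, as did 0% of all genes. At an unadjusted p under 0.05 there were 3 of 10, against 2392 of 22180 genes. Chac1 was higher with dsDNA by 0.34 (95% interval 0.02 to 0.66, limma adjusted p = 0.46), Slc3a2 by 0.24 (0.01 to 0.47, adjusted p = 0.46), and Phgdh was at -0.24 (-0.45 to -0.04, adjusted p = 0.457). Phgdh was lower with dsDNA in 4 of 4 lines, by differences of -0.25 in R284S, -0.31 in N154S, -0.08 in hSTING and -0.33 in vector cells. Slc3a2 was higher in 4 of 4, by 0.10, 0.32, 0.44 and 0.09 in the same lines. Chac1 differed most in N154S and hSTING cells, by 0.62 in each, against 0.19 in R284S and -0.07 in vector cells. For Psat1, the interval of -0.24 to 0.21 was narrow beside its difference between R284S and vector cells. The interaction test set the mean dsDNA difference of R284S, N154S and hSTING cells against that of vector cells. It also called 0 of 10 genes and 0% of all genes. Unadjusted, 0 of 10 had a p under 0.05, against 798 of 22180 genes.

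**Figure D3:**
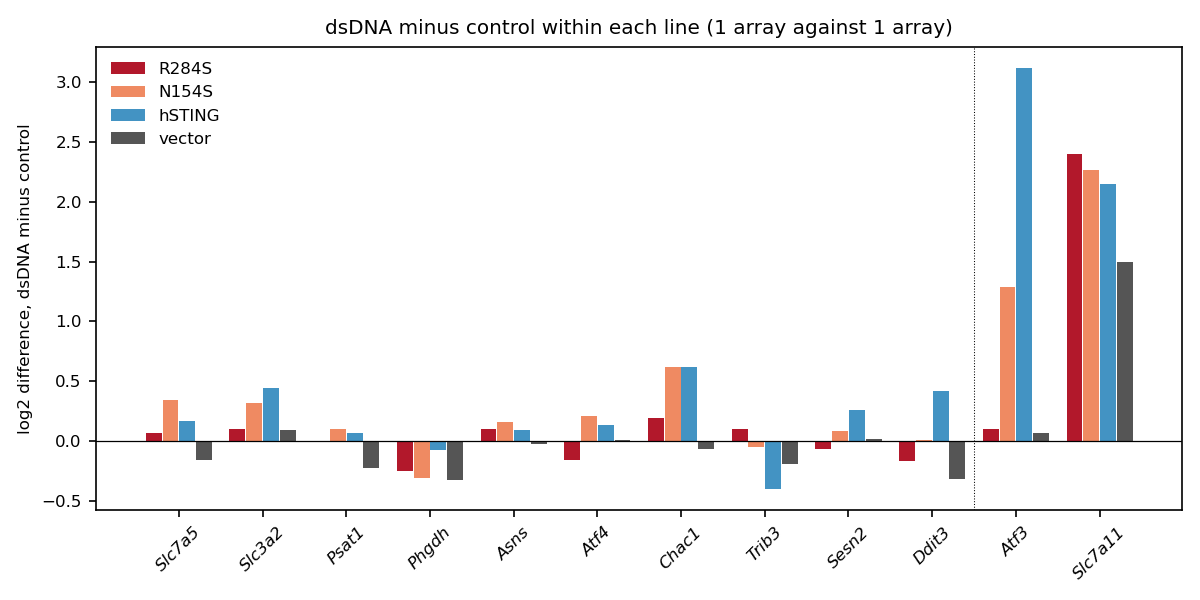
Log2 difference of dsDNA-treated minus control cells for the 10 genes in R284S, N154S, hSTING and vector cells, 1 array against 1 array per bar. Atf3 and Slc7a11, to the right of the dotted line, are other ATF4 targets. The differences of the 10 genes stay between -0.40 and 0.62, while those of Slc7a11 run from 1.50 to 2.40.

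Part of the wider set of ATF4 targets was lower in the mutants as well. Of 28 other targets measured, 10 fell and 0 rose in R284S against vector cells, where 1.02% of all genes fell, with a median difference of -0.41. In N154S cells 5 fell and 0 rose, where 0.609% of all genes fell, with a median of -0.40. Apart from Pck2 and the transcription factor gene Atf5, those 10 serve amino acid or folate metabolism or amino acid transport. Pck2, the mitochondrial enzyme that makes phosphoenolpyruvate, read 7.06 with dsDNA and 7.10 in control R284S cells and 7.11 and 7.15 in N154S cells, against 8.54 and 8.79 in vector cells. It fell by 1.59 in R284S cells (SE 0.15, limma adjusted p = 0.00542) and by 1.54 in N154S cells (adjusted p = 0.00879), so that the mutants lay within 0.05 of each other at each treatment. Cth, which makes cysteine from cystathionine, read 4.99 and 4.76 in R284S cells, against 6.58 and 6.56 in vector cells, and fell by 1.70 (SE 0.21, adjusted p = 0.0137). The mitochondrial folate enzyme Mthfd2 fell by 1.37 and the related Aldh1l2 by 1.17 in R284S cells, and both also fell in N154S cells, by 0.84 and 0.75. The arginine and lysine carrier Slc7a3 fell by 1.58 in R284S and 1.06 in N154S cells, and the alanine aminotransferase Gpt2 by 0.76 and 0.83. Atf5, the neutral amino acid carrier Slc1a4, the serine hydroxymethyltransferase Shmt2 and the proline synthesis gene Aldh18a1 fell in R284S cells, by 0.69 to 0.92. In hSTING against vector cells 0 of the 28 passed in limma, where 0.0992% of all genes passed. At an unadjusted p under 0.05 there were 3, against 2058 of 22180 genes. Against hSTING cells, 6 of the 28 fell in R284S cells, where 0.442% of all genes fell. Among them was the arginine carrier Slc7a1 at -1.11 (limma adjusted p = 0.0398). In N154S against hSTING cells 0 passed, as did 0% of all genes. At an unadjusted p under 0.05 there were 15 of the 28, against 1972 of 22180 genes.

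**Figure D4:**
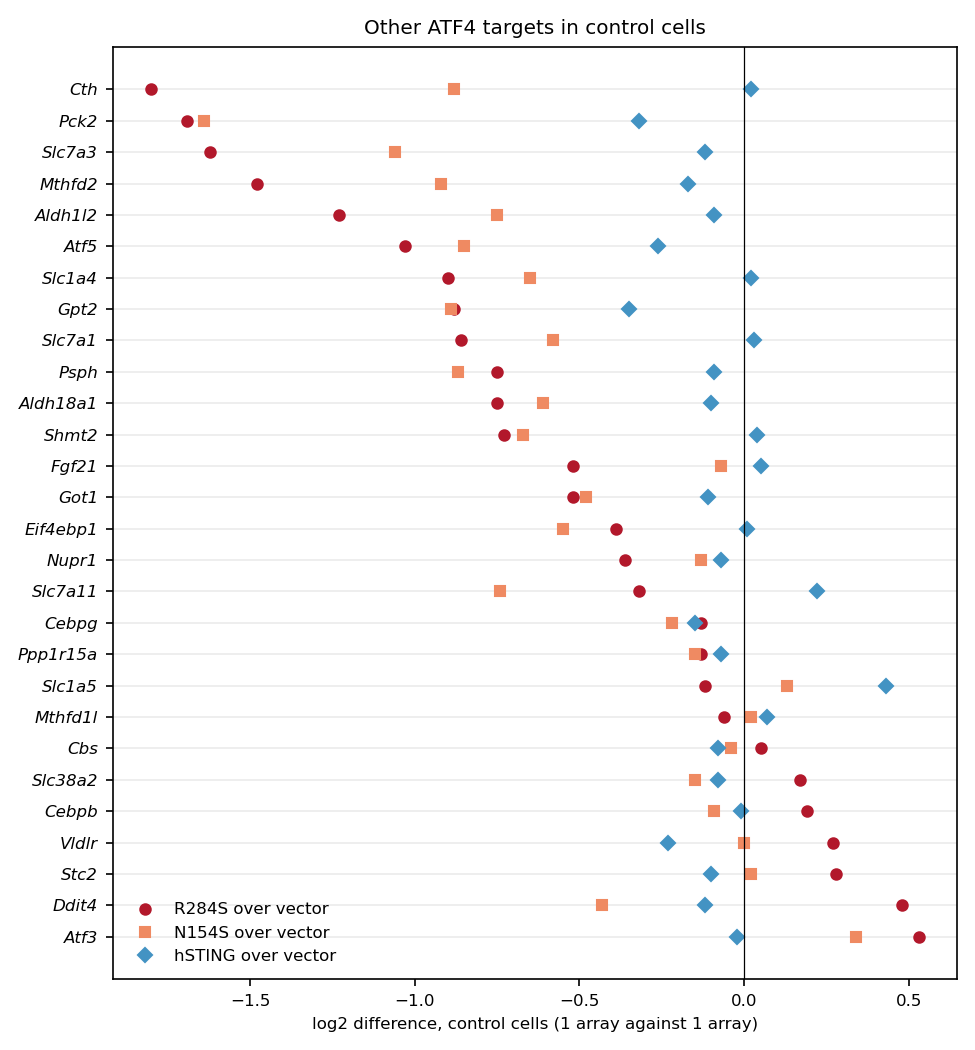
Log2 differences of R284S, N154S and hSTING control cells from vector control cells for 28 other ATF4 targets, 1 array against 1 array per point, ordered by the R284S value. Cth, Pck2, Slc7a3 and Mthfd2 are lowest in R284S cells, and Atf3 and Ddit4 are on the higher side.

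Neighbouring arms of the stress response gave few calls. Of 12 genes for cytosolic aminoacyl-tRNA synthetases and the tRNA exporter Xpot, which ATF4 also induces, 0 passed in R284S or N154S against vector cells. At an unadjusted p under 0.05 there were 5 and 2, against 3164 and 3292 of 22180 genes, and the medians were -0.28 and -0.09. Their differences in R284S cells ran from -0.44 to -0.04. Of 16 ER chaperone and ER quality control genes driven mainly by ATF6 and XBP1, 0 passed in R284S cells, with 1 at an unadjusted p under 0.05. In N154S cells 1 fell, where 0.609% of all genes fell. That gene was Herpud1, an ER degradation factor also induced by ATF4, which read 7.72 with dsDNA and 7.93 in control N154S cells, against 8.53 and 8.72 in vector cells (-0.80, limma adjusted p = 0.028). The main ER chaperone Hspa5 stayed between 9.30 and 9.66 on the 8 arrays. Of 5 genes for eIF2 kinases and the eIF2 phosphatase subunit Ppp1r15b, Eif2ak2, the interferon-induced kinase PKR that senses double-stranded RNA, rose in all 3 lines with STING. It read 8.63 with dsDNA and 8.27 in control R284S cells, 9.41 and 8.89 in N154S cells, 9.26 and 8.51 in hSTING cells, and 7.67 and 6.73 in vector cells. Eif2ak2 was higher by 1.25 in R284S, 1.95 in N154S and 1.69 in hSTING cells (adjusted p = 0.0162, adjusted p = 0.00616 and adjusted p = 0.0282).

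Slc7a11, the cystine importer, had the highest fitted dsDNA difference of the 28 other targets. It is induced by ATF4 and also by the antioxidant factor NRF2. With dsDNA and as control it read 7.39 and 4.99 in R284S cells, 6.84 and 4.57 in N154S cells, 7.68 and 5.53 in hSTING cells, and 6.81 and 5.31 in vector cells. The dsDNA arrays were above the control arrays in 4 of 4 lines, vector cells included, at an average of 2.08 (SE 0.15, limma adjusted p = 0.0586), which did not pass. Atf3, a stress-induced repressor, read 9.10 with dsDNA and 5.98 in control hSTING cells and 7.63 and 6.34 in N154S cells, against 6.07 and 6.0 in vector cells. In R284S cells Atf3 read 6.63 and 6.53.

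Genes with patterns most like the list were sought among 1369 genes at or above the median gene level whose signals spanned at least 1 on the log2 scale, by Pearson's r over the 8 arrays. The mean of the 10 genes was followed most closely by the glypican Gpc6 (r = 0.971), the arginine carrier Slc7a1 (r = 0.968) and the histone gene H2bc12 (r = 0.966). Nppb, Mthfd2 and Asns were nearest to Psat1 (r = 0.997, 0.996 and 0.989). Psat1, Slc7a3 and Nppb were nearest to Asns (r = 0.989, 0.987 and 0.984). Gpc6, Psat1 and Nppb were nearest to Slc7a5 (r = 0.987, 0.979 and 0.972), and Ccnyl1, Ntn4 and H2bc12 to Phgdh (r = 0.986, 0.975 and 0.968). Chac1 was closest to the immediate early gene Egr1 (r = 0.985), which read 8.34 in dsDNA-treated hSTING cells, then to Slc7a1 (r = 0.951) and Pdgfrl (r = 0.934). For Ddit3 the nearest were the class I genes H2-Q5 (r = 0.96) and H2-T23 (r = 0.954) and the complement gene C2 (r = 0.948), with H2-Q5 at 8.01 with dsDNA and 7.32 in control N154S cells, against 4.09 and 4.46 in vector cells. Class I genes have near-identical copies, so the identity of the H2-Q5 signal is uncertain.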

How the data were processed

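Per the labels' protocols, 300 ng of total RNA per sample was prepared with GeneChip WT PLUS reagents for Affymetrix arrays, and values came from Affymetrix Expression Console 1.3.1.187, as listed in the submitters' processing notes. The deposited values are log2 array signals rounded to 2 decimals, 1 column per array, with array medians of 3.79 to 3.85. The summary algorithm and build were not given in the sources used here. No detection calls were used, and the number of arrays limits the precision.

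Of 41345 probe sets, 23521 had 1 symbol in the platform annotation, 1814 had several and 16010 were unlisted, and per gene the probe set with the highest mean was used (22180 genes; each member had 1 probe set). Construct and treatment differences were fitted additively with limma 3.58.1 in R 4.3.3 (lmFit, eBayes; 3 residual and 4.03 prior degrees of freedom), and the dsDNA difference with and without STING in a second fit (2 residual), and p-values were adjusted by Benjamini-Hochberg over all genes, with a threshold of 0.05. The fit was tested on simulated data. Alternatives were eBayes with a trend and robust variances, a filter on dim genes, mean probe sets, quantile normalization, testing all probe sets, leaving out each pair of arrays of a construct, and the arrays of the 2 constructs alone. Members, lists (other ATF4 targets, tRNA synthetases, eIF2 kinases, ER chaperones, an interferon panel, cell type markers) and tests were chosen with earlier results of these data known. Named were all members, list genes that passed outside the interferon panel, some extremes of a list, and for patterns the 3 genes with the highest r. The markers Fn1, Vim, Ptprc, Epcam and Tek lie at the bright or dim end of their lists. Of the interferon panel, Ccl5 alone was described. Col1a1, Cd68, Krt8, Kdr, Hspa5, Ppp1r15a, Nupr1, Ddit4 and the promoters printed for Pck2, Atf3 and Slc7a11 were chosen after their values were seen.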

Additional observations from a re-analysis of the deposited data

Results flagged for a closer look

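The dsDNA differences of Chac1, Asns and Slc7a5 were below 0 in the vector line and above 0 in each of the 3 STING lines, at 1 array against 1 array. For Chac1 the differences were 0.19 in R284S, 0.62 in N154S and 0.62 in hSTING cells, against -0.07 in vector cells. For Asns they were 0.10, 0.16 and 0.09, against -0.03 in vector cells, and for Slc7a5 0.07, 0.34 and 0.17, against -0.16. Several of these lie near 0. The average of the STING lines minus the vector line was 0.55 for Chac1, 0.15 for Asns and 0.35 for Slc7a5. None of the 3 passed the limma interaction test (adjusted p = 0.994 for each), and the vector line gave a single difference.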

How the results depend on the processing

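Counts of the 10 genes that passed depended on the settings. The fitted construct differences of the called genes could change only with quantile normalization, where they kept their direction. The other settings leave these differences as they are and change only the p-values. In R284S against vector cells the count of 4 became 7 with trended, robust limma variances, 6 with the filter on dim genes, 2 when all probe sets were tested, and 0 with the arrays of the 2 constructs alone, and it was 2 to 4 when a pair of arrays was left out. In N154S against vector cells the count of 2 became 4 with trend and robust variances, 4 with the filter on dim genes, 1 after quantile normalization, 0 when all probe sets were tested and 0 with the 2 constructs alone, and it was 0 to 2 with a pair left out. In R284S against hSTING cells the count of 5 became 7 with trend and robust variances, 6 with the filter on dim genes, 4 after quantile normalization (without Chac1, adjusted p = 0.0567), 1 when all probe sets were tested and 0 with the 2 constructs alone, and it was 1 to 3 with a pair left out. With trend and robust variances, 3 genes passed in N154S against hSTING and 1 in R284S against N154S cells, where the count was 0 otherwise. The counts for dsDNA, for hSTING against vector cells and for the interaction were 0 under all settings run. The calls over all genes tested changed as well. Their order here is trend and robust variances, filter on dim genes, quantile normalization, all probe sets, and 2 constructs alone. In R284S against vector cells 453 became 854, 761, 464, 113 and 1. In N154S against vector cells 292 became 726, 662, 289, 62 and 99. In R284S against hSTING cells 211 became 584, 455, 211, 20 and 0. With trend and robust variances 0 became 125 in N154S against hSTING cells, and 2 became 12 in R284S against N154S cells. With 1 array per construct and treatment, noise between cultures was not measured.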

Other observations

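In dsDNA-treated hSTING cells the eIF2 phosphatase subunit Ppp1r15a read 6.93, against 6.04 in control hSTING cells. The stress-induced chromatin protein Nupr1 read 9.18, against 8.58, and the mTORC1 inhibitor Ddit4 was on the lower side, at 6.63 against 7.41. In R284S cells Ddit4 read 7.94 with dsDNA and 8.01 as control, above its levels in the other lines (6.63 to 7.61). These genes were chosen after their values were seen, and these are single arrays with no test.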
